A study of Mus musculus with 12 samples.

Results

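Respiratory complex I (NADH:ubiquinone oxidoreductase) is the entry point of NADH electrons into the mitochondrial respiratory chain. The genes described here are the nuclear genes whose symbol is Nduf followed by a, b, c, s or v and a number, together with Ndufab1. This rule found 37 of the 55487 genes in the deposited expression table. Symbols entered by name alone, though the rule was chosen with earlier results of these data known.

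The RNA came from hearts of mice labelled WT, 3 libraries in each of 4 groups. Sham mice had the thoracotomy without coronary occlusion and drank normal water. Sham+B12 mice had the same sham operation and received vitamin B12 at 50 mg/L in the drinking water for 7 days before surgery, at a water intake of 4 mL per day. I/R mice had ischemia/reperfusion, with the left anterior descending coronary artery occluded for 45 min and then released for 24 h, on normal water. I/R+B12 mice had the same occlusion after the same B12 water. The labels name the tissue as heart without saying which region was taken or whether each library is 1 animal, so p-values measure the spread between these libraries. Expression is in FPKM, which counts fragments relative to both the length of the transcript and the size of the library, so that levels can be compared between genes.

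Complex I oxidises NADH and passes its electrons through a flavin and a chain of iron-sulfur clusters to ubiquinone, while pumping protons across the inner membrane. Its core subunits carry the catalysis and are shared with bacteria. The accessory subunits surround the core and are needed for assembly and stability, and the membrane core is encoded by mitochondrial DNA. Cardiac muscle is rich in mitochondria, and complex I is a known source of reactive oxygen species at reperfusion.

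Libraries were compared with their labels before any result was drawn. Depth, estimated from the spacing of low FPKM values, lay between 24.0 and 28.5 M fragments per library. The 14 cardiomyocyte markers were detected in all libraries, none at 0 throughout, with summed levels of 57490 to 66910 FPKM in the sham groups, 41320, 41870 and 58120 FPKM in I/R, and 43410, 46770 and 63490 FPKM in I/R+B12. The 10 neutrophil markers summed to 64.3, 77.8 and 336.5 FPKM in Sham 1 to 3, and to 1601, 1733 and 106.2 FPKM in I/R 1 to 3. In I/R+B12 they summed to 1333, 3230 and 343.2 FPKM, and in Sham+B12 to between 57.3 and 94.1 FPKM. The library labelled Sham 3 was thus above the other sham libraries, the library labelled I/R 3 was near sham levels, and I/R+B12 3 lay between. The labels were kept, and results are given with and without these libraries.

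All 37 genes were strongly transcribed. Each ranked among the 1000 genes with the highest mean FPKM, from rank 59 to rank 835. The median of their mean levels was 501.9 FPKM, and 28 of the 37 had a mean between 200 and 700 FPKM. Over the 12 libraries the highest value of a gene was 1.27 times its lowest for Ndufv2 and 1.86 times for Ndufs7, with the other genes between. The plot of levels by gene shows that differences between genes were far wider than differences between libraries for any gene.

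**Figure D1:**
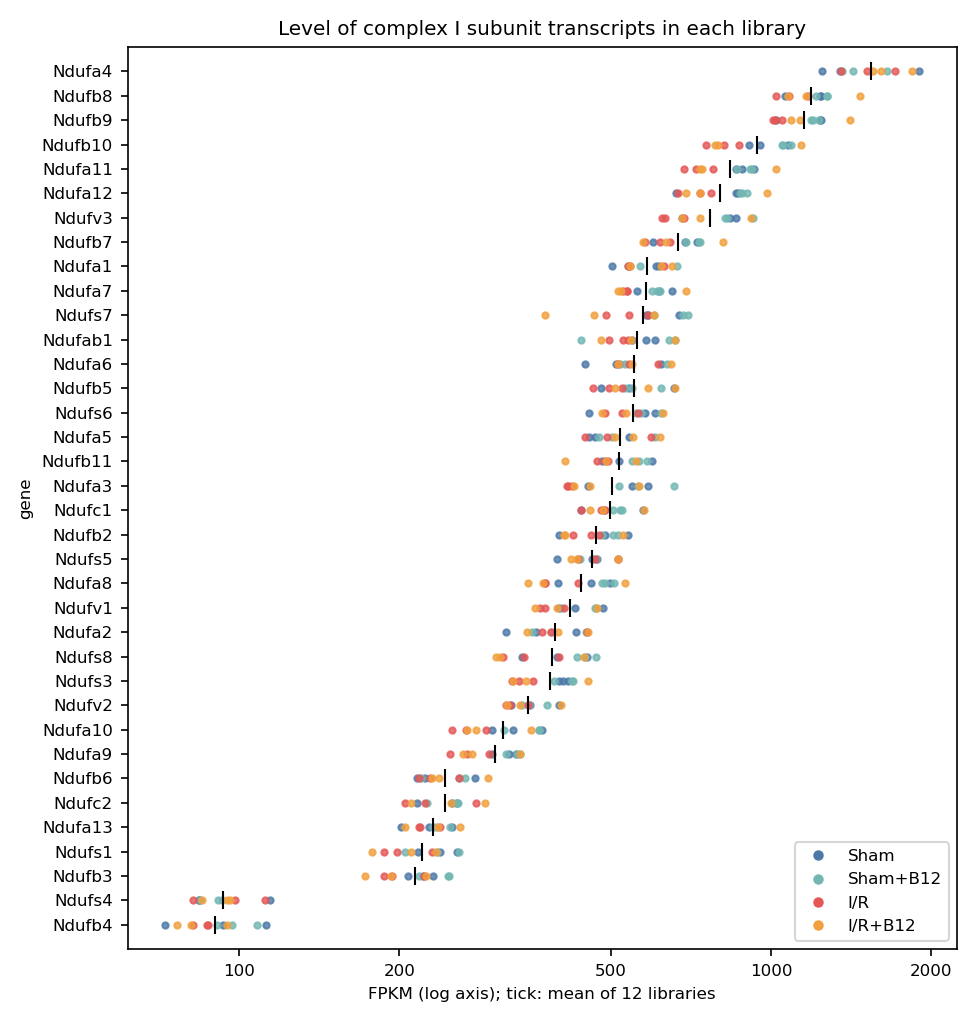
FPKM (log axis) of the genes shown, ordered by mean, with 1 point per library coloured by group and a tick at the mean of 12 libraries. Means run from 90.1 FPKM for Ndufb4 to 1541 FPKM for Ndufa4, and points of the 4 groups overlap for most genes.

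Ndufa4 had the highest mean level, 1541 FPKM. Its product was first purified with complex I and later found to belong to cytochrome c oxidase, complex IV. Its levels were 1347, 1898 and 1248 FPKM in Sham, 1360, 1647 and 1426 FPKM in Sham+B12, 1350, 1514 and 1705 FPKM in I/R, and 1556, 1606 and 1835 FPKM in I/R+B12. All 4 groups overlapped, and the widest spread was within Sham. Ndufb4, an accessory subunit of the distal membrane arm, had the lowest mean, 90.1 FPKM. It gave 93.2, 112 and 72.6 FPKM in Sham, 90.7, 108 and 96.7 FPKM in Sham+B12, 81.9, 87.2 and 86.8 FPKM in I/R, and 81.3, 76.4 and 94.8 FPKM in I/R+B12. This level is uncertain, because 33.4% of the 100-base stretches of Ndufb4 transcripts also occur in Ndufb4c, a relative outside the rule with a mean of 688.4 FPKM, and the division of shared reads is not given in the sources used here.

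The promoters of Ndufa3, which had the smallest p for I/R averaged over both waters, and Ndufa4, which had the highest level, are shown. They come from RefSeq on GRCm38.p6, which had an entry for 33 of the 37 genes, and cover up to 250 bases before the start. Capitals mark matches to the letters TATAAA, of the TATA box, and GGGGCGGGG, of the SP1 motif, at any position in the window. In Ndufa3, TATAAA lies farther from the start than GGGGCGGGG. Whether either match acts as a promoter element was not tested.
Ndufa3, chr7:3617123-3617372, plus strand: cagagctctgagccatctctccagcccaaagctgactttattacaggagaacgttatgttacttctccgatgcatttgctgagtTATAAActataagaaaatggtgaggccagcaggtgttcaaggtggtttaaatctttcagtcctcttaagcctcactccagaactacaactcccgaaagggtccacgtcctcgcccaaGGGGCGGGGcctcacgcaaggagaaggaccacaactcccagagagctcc
Ndufa4, chr6:11907498-11907700, minus strand, the bases outside exons: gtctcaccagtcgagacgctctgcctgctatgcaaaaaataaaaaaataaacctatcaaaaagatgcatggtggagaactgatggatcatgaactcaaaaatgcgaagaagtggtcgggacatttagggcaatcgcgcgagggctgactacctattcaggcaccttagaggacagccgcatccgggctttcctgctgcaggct
The window of Ndufs7 lay largely in exons of another transcript of that gene and is not printed.

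Motifs were searched on both strands of the 33 windows. The full site of NRF1, a regulator of respiratory genes, occurred in 1 window (3.0%, Ndufa11) against 0.88% of 27025 genes. The shorter CGCATGCG, which lies within it, occurred in 2 (6.1%, Ndufa11 and Ndufa8) against 1.75%. TCAAGGTCA for oestrogen-related receptors, AAGATGGCG for YY1 and CCGGAAGT for ETS factors were in none of the 33, against 0.42%, 0.71% and 3.23% of all genes. At shares this low, none in 33 windows cannot show a lack of these sites. Bases after the start were not searched. GGGGCGGGG was in 4 (12.1%) against 11.79%, and TATAAA in 4 (12.1%) against 14.33%. Median GC content was 57.6% in the 33 windows and 52.4% in all.

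The first question was whether ischemia/reperfusion altered these transcripts. None of the 37 genes passed the test in I/R against Sham, where the share of all 13001 tested genes called at an adjusted p under 0.05 was 0% (limma with Benjamini-Hochberg adjustment over all tested genes). All 37 passed the filter on low values. At an unadjusted p under 0.05, 2 genes were lower (background 1.04%) and 0 were higher (background 10.6%). The fitted difference was below 0 for 31 of 37 genes, against 30.9% of all tested genes. The median log2 difference of the 37 was -0.13, beside 0.13 for all tested genes. Without Sham 2, 23 of 37 were below 0 and the median was -0.08. With median-ratio scaling, which brought the median of all genes to 0.00, all 37 were below 0 and their median was -0.28. In 9 genes all I/R libraries lay below all Sham libraries, against 3.6% of tested genes, among them Ndufa3, Ndufa7, Ndufa9, Ndufa10, Ndufa11, Ndufab1, Ndufb10 and Ndufs3. In whole tissue, fewer cells of a type and less RNA per cell cannot be told apart.

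Under B12 water, 0 of 37 genes passed in I/R+B12 against Sham+B12, where 10.4% of all tested genes did (limma). Unadjusted, 3 genes were lower (background 15%) and 0 were higher (background 17.3%). The difference was below 0 for 28 of 37 genes, against 51.9% of tested genes, with a median of -0.11 beside -0.02 for all. Without I/R+B12 1 the median was -0.03, beside -0.12 for all tested genes, and without I/R+B12 2 it was -0.05, beside 0.05. With library weights, which did not converge, 16 were below 0 and the median was 0.02. With any 1 library left out the median stayed below 0, from -0.24 to -0.03. Its size thus depended on single libraries, and its sign on the weighting. Only Ndufs7 had all I/R+B12 libraries below all Sham+B12 libraries, against a background of 13.2%. When I/R was averaged over both waters, again 0 of 37 passed (background 10.1%), while 11 were lower at an unadjusted p under 0.05 (background 9.54%) and 0 were higher (background 21.8%). The averaged difference was below 0 for 29 of 37 genes, against 43.3% of tested genes. The median was then -0.12, beside 0.05 for all tested genes.

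The comparisons on water and under B12 share no libraries. Both differences were below 0 for 27 of the 37 genes, which is 87.1% of the 31 below 0 on water and 96.4% of the 28 below 0 under B12. Among all tested genes the same shares were 73.2% and 43.5%, and 22.6% were below 0 in both. The genes above 0 in both numbered 5, named after their values were seen: Ndufa2, Ndufa4, Ndufa5, Ndufa6 and Ndufs4, with differences from 0.01 to 0.17 and no call.

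**Figure D2:**
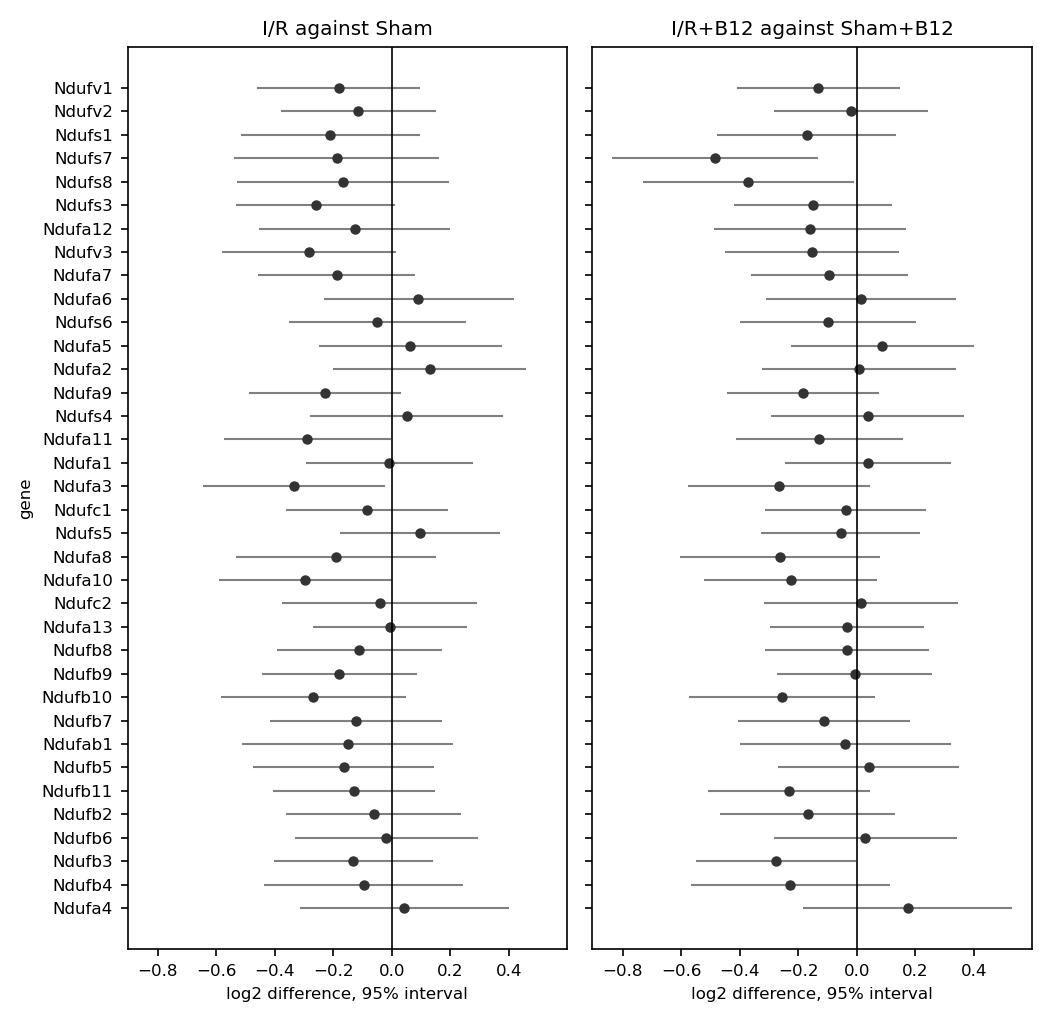
Fitted log2 difference (point) with its 95% interval (line) for the genes shown, I/R against Sham at left and I/R+B12 against Sham+B12 at right, ordered by role. Most points lie below 0 in both panels, and most intervals include 0.

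The pattern by library was not the pattern by label. Each library was scored by the mean of the 37 log2 values after centring each gene on its mean. Scores were 0.07, 0.11 and -0.11 in Sham, 0.05, 0.12 and 0.11 in Sham+B12, -0.16, -0.15 and 0.01 in I/R, and -0.13, -0.13 and 0.21 in I/R+B12. The lowest were thus I/R 1 and 2 and I/R+B12 1 and 2, followed by Sham 3, and the highest was I/R+B12 3. I/R+B12 3 held the highest value of 20 of the 37 genes, while Sham 3 held the lowest of 11.

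Against the 3 sham libraries on the same water, 23 and 20 genes were below all of them in I/R 1 and I/R 2, and 29 and 27 in I/R+B12 1 and I/R+B12 2. In I/R 3, 9 were below and 5 above. In I/R+B12 3, 1 was below and 24 were above. The summed level of the 37 genes was 20024 ± 1720 FPKM in Sham, 21008 ± 522.4 FPKM in Sham+B12, 18316 ± 1179 FPKM in I/R and 19793 ± 2892 FPKM in I/R+B12 (SD, n = 3 each). The SD of I/R+B12 was larger than its distance from any other group.

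**Figure D3:**
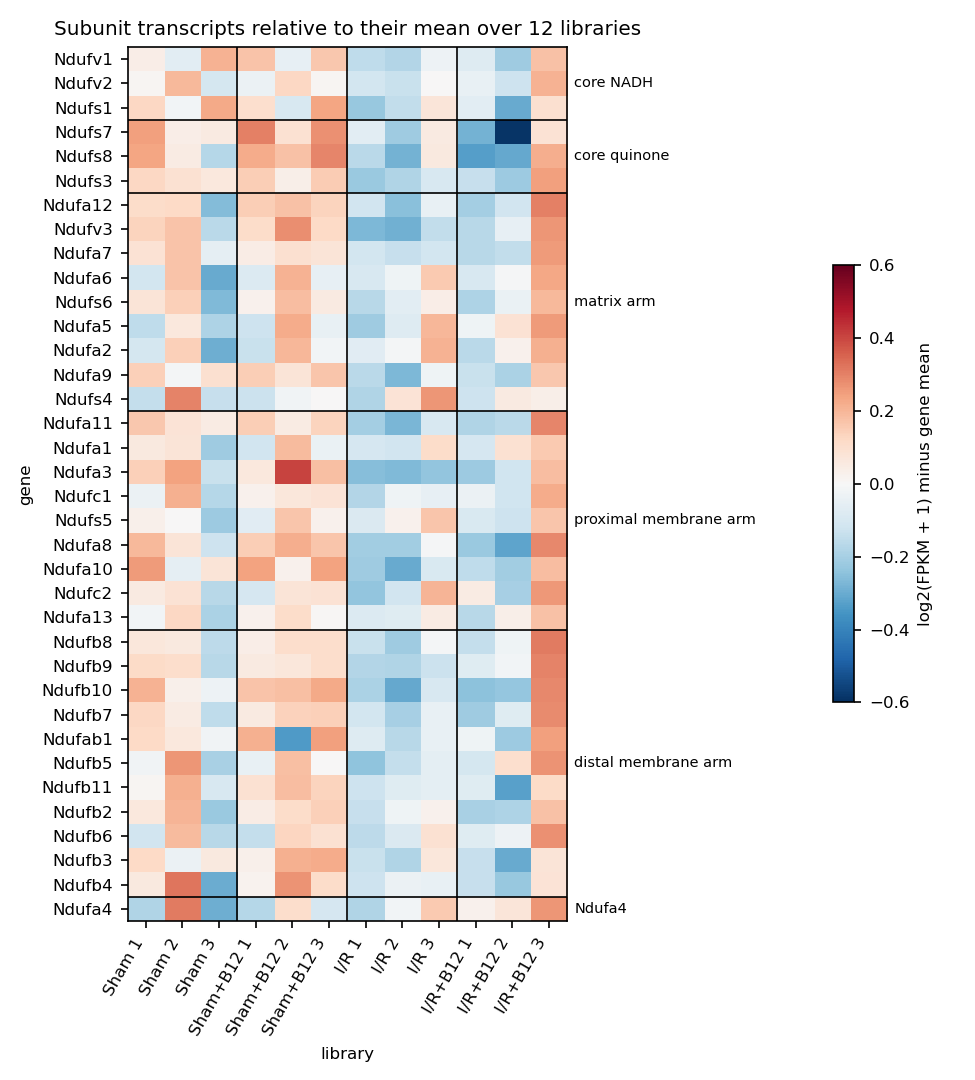
log2(FPKM + 1) minus the gene's mean over 12 libraries, with genes in rows by role and libraries in columns by group. I/R 1, I/R 2, I/R+B12 1 and I/R+B12 2 are mostly blue (low), I/R+B12 3 is red (high) in nearly all rows, and Sham 3 is blue among many accessory subunits.

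Leaving libraries out moved the counts. Without I/R+B12 3, 4 genes were called lower in I/R+B12 against Sham+B12 (Ndufs7, Ndufs8, Ndufa8 and Ndufb10), a comparison in which that fit called 12.3% of all tested genes and 4.07% lower. In that fit 11 were called lower when I/R was averaged over both waters, where 17.5% of all tested genes were called and 4.06% lower. The medians were -0.24 and -0.19. Without Sham 3, I/R 3 and I/R+B12 3 together, a choice made after seeing the data, 18 genes were called lower in the average, where 25% of all tested genes were called and 6.96% lower. Under B12 that fit called 5 lower, where 18.1% of all tested genes were called and 6.3% lower. None was called on water, where all 37 differences were below 0 with a median of -0.24. Without Sham 3 and I/R 3 alone, 1 gene was called lower in the average, Ndufa3, where 18.1% of all tested genes were called and 4.45% lower.

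The cardiomyocyte markers moved with these scores in part. Their mean centred values were 0.28, 0.05 and 0.10 in Sham, 0.26, 0.08 and 0.31 in Sham+B12, -0.31, -0.38 and 0.11 in I/R, and -0.37, -0.35 and 0.21 in I/R+B12. The same 4 libraries were low, and I/R 3 and I/R+B12 3 were above 0. Sham 3 went the other way, at 0.10 for the markers and -0.11 for the 37 genes. In I/R averaged over both waters, all 14 cardiomyocyte markers were below 0 with a median of -0.29 and none was called. Their part in the result was not tested.

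The core subunits of the NADH-oxidising tip are Ndufv1, which binds NADH and the flavin, Ndufv2, which carries an iron-sulfur cluster, and Ndufs1, which carries several. Ndufv1 gave 428, 399 and 482 FPKM in Sham, 469, 403 and 465 in Sham+B12, 375, 368 and 408 in I/R, and 395, 360 and 470 in I/R+B12. Ndufv2 gave 352, 399 and 324 FPKM in Sham, 340, 379 and 351 in Sham+B12, 323, 318 and 349 in I/R, and 337, 319 and 403 in I/R+B12. Ndufs1 gave 239, 216 and 256 FPKM in Sham, 235, 205 and 258 in Sham+B12, 187, 198 and 230 in I/R, and 210, 177 and 234 in I/R+B12. Groups overlapped in all 3 genes on both waters. The median log2 difference of the 3 was -0.18 for I/R against Sham and -0.13 for I/R+B12 against Sham+B12, with no call.

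The 4 core subunits of the module that leads electrons to ubiquinone include Ndufs3 and the iron-sulfur subunits Ndufs7 and Ndufs8. Their median log2 differences were the lowest of the role groups: -0.20 on water, -0.29 under B12 and -0.24 averaged. All 4 genes were below 0 each time, against 30.9%, 51.9% and 43.3% of all tested genes. In the average all 4 were lower at an unadjusted p under 0.05, against 9.54% of all tested genes. None of the 4 was called.

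Ndufs7 gave 672, 582 and 586 FPKM in Sham, 697, 603 and 683 in Sham+B12, 540, 488 and 588 in I/R, and 465, 375 and 601 in I/R+B12. The gene lies at chr10:80249121-80256794 on the plus strand. I/R+B12 1 and 2 were the 2 lowest of the 12 libraries, and I/R+B12 3 lay just under the lowest Sham+B12 library. The log2 difference under B12 was -0.48 (SE 0.16, adjusted p = 0.07001, limma), and without I/R+B12 3 it was -0.66 with adjusted p = 0.02659. Over all alternatives its adjusted p (limma) ran from 0.01618 to 0.2236. On water it was -0.19 (SE 0.16), and the test of the difference between waters gave -0.30 (SE 0.23, adjusted p = 0.5499, limma).

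Ndufs8 gave 451, 396 and 339 FPKM in Sham, 446, 432 and 469 in Sham+B12, 342, 314 and 399 in I/R, and 304, 309 and 445 in I/R+B12. Again I/R+B12 1 and 2 were lowest, while I/R+B12 3 fell within the Sham+B12 range. The log2 difference under B12 was -0.37 (SE 0.17, adjusted p = 0.1471, limma). Ndufs3 gave 415, 405 and 399 FPKM in Sham, 422, 391 and 424 in Sham+B12, 326, 336 and 356 in I/R, and 346, 327 and 452 in I/R+B12. In Ndufs3 I/R did not overlap Sham, and I/R+B12 3 stood above the sham libraries.

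**Figure D4:**
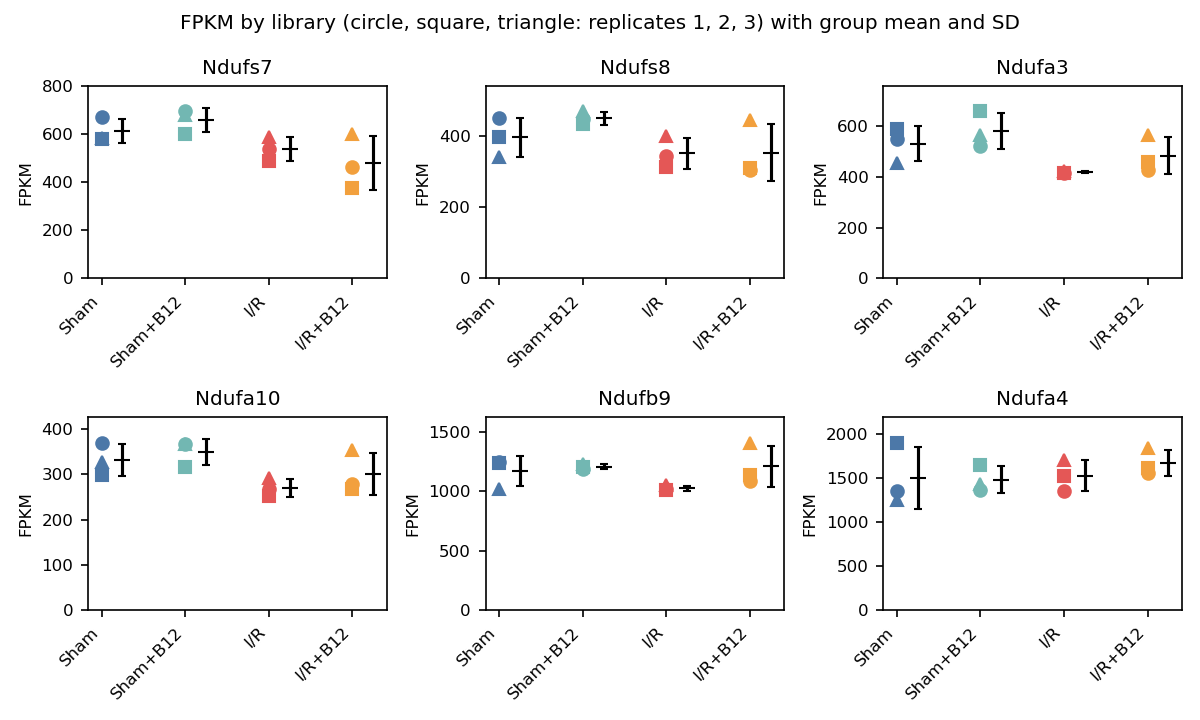
FPKM by library for 6 genes, axis from 0, with the 3 replicates of each group as circle, square and triangle and the group mean with SD beside them. In all 6 genes the I/R+B12 triangle stands above the circle and square, and in Ndufa4 all groups overlap.

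The 9 accessory subunits of the matrix arm had median log2 differences of -0.05 on water and -0.09 under B12, with 5 of 9 below 0 in each. Ndufv3, a small subunit near the NADH tip, gave 836, 858 and 680 FPKM in Sham, 820, 925 and 826 in Sham+B12, 631, 623 and 687 in I/R, and 679, 735 and 915 in I/R+B12. Ndufa12, a subunit near the quinone module, gave 859, 864 and 663 FPKM in Sham, 882, 899 and 874 in Sham+B12, 734, 668 and 771 in I/R, and 690, 733 and 981 in I/R+B12. In Ndufa12 every Sham+B12 library was above every Sham library, by 0.16 on the log2 scale (SE 0.15, adjusted p = 0.9994, limma), an order that 1.54% of tested genes had.

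The 9 accessory subunits of the proximal membrane arm had medians of -0.08 and -0.06. Ndufa3, a small membrane subunit at chr7:3617373-3620327 on the plus strand, gave 548, 587 and 452 FPKM in Sham, 518, 657 and 562 in Sham+B12, 415, 413 and 421 in I/R, and 426, 457 and 565 in I/R+B12. I/R lay below Sham without overlap, with a log2 difference of -0.34 (SE 0.14, adjusted p = 0.4224, limma), and the average over both waters was -0.30 (SE 0.10, adjusted p = 0.07276, limma). Its promoter is the first of those printed above.

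Ndufa10, an accessory subunit related to nucleoside kinases, gave 370, 299 and 327 FPKM in Sham, 366, 315 and 366 in Sham+B12, 267, 251 and 291 in I/R, and 279, 268 and 353 in I/R+B12. Ndufa11, a membrane subunit, gave 929, 880 and 860 FPKM in Sham, 920, 861 and 913 in Sham+B12, 722, 687 and 776 in I/R, and 734, 742 and 1019 in I/R+B12. Both were lower in all I/R than in all Sham libraries, and I/R+B12 3 was the highest of all 12 for Ndufa11. Their log2 differences on water were -0.30 (SE 0.14) and -0.29 (SE 0.13), with adjusted p = 0.4274 and 0.4261 (limma).

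The 11 accessory subunits of the distal membrane arm, which include Ndufab1, a mitochondrial acyl carrier protein, were all below 0 on water, with a median of -0.13, and 9 of 11 were below 0 under B12, with a median of -0.11. Ndufb3, a small membrane subunit, gave 231, 208 and 221 FPKM in Sham, 217, 247 and 248 in Sham+B12, 194, 187 and 223 in I/R, and 193, 172 and 224 in I/R+B12. Its log2 difference under B12 was -0.28 (SE 0.12, adjusted p = 0.1498, limma), with I/R+B12 3 inside the Sham+B12 range.

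The second question was whether B12 altered these transcripts. None of the 37 was called in I/R+B12 against I/R or in Sham+B12 against Sham, where the background was 0% in both (limma). None had an unadjusted p under 0.05 either: among all tested genes 24.6% were lower and 3.9% higher by that rule in the first comparison, and 1.18% lower and 0.508% higher in the second. Within the I/R groups the difference was below 0 for 9 of 37 genes, against 71.8% of tested genes, with a median of 0.09 beside -0.21 for all. Without I/R+B12 3 it was below 0 for 26 of 37 with a median of -0.03, so that the sign of the median rests on that library. The median of all tested genes in that fit is not given here, so the members' distance from it is not described. The mean centred values of all tested genes were 0.224, 0.163 and 0.061 in I/R, and 0.123, -0.156 and -0.155 in I/R+B12. They were -0.034, 0.017 and -0.009 in Sham, and -0.118, -0.050 and -0.066 in Sham+B12. In the same comparison no marker of macrophages, fibroblasts or cardiomyocytes was called (limma). Of 14 macrophage markers, 13 were below 0 with a median of -1.16 and 9 were lower at an unadjusted p under 0.05, and all 9 fibroblast markers were below 0 with a median of -0.56. Macrophage markers summed to 463.4 to 914.5 FPKM in I/R and 215.0 to 537.1 FPKM in I/R+B12, and fibroblast markers to 1243 to 1649 FPKM and 913.2 to 1093 FPKM. Of 14 cardiomyocyte markers, 10 were above 0 with a median of 0.11. At an unadjusted p under 0.05, 2 of the 14 were lower, Pln and Csrp3, and 0 were higher. The part of these cell types in the result was not tested. In Sham+B12 against Sham 4 of 37 were below 0, against 67.9%, with a median of 0.08, and without Sham 3 the median was 0.01 with 18 below 0. The interaction, which tests whether the I/R difference depends on B12, called none (background 0%), and none had an unadjusted p under 0.05 (background 8.86% lower and 3.41% higher). It was below 0 for 14 of 37 genes, against 63.7% of tested genes, and its median was 0.04 beside -0.14 for all tested genes. Without I/R+B12 3 it was below 0 for 32 of 37 with a median of -0.06, and without Sham 3 and I/R 3 for 5 of 37 with a median of 0.13, so that this direction also rests on single libraries. Medians of all tested genes in these fits are not given here either.

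Ndufb9, an accessory subunit of the distal arm, had the smallest p in I/R+B12 against I/R. It gave 1242, 1234 and 1019 FPKM in Sham, 1188, 1199 and 1230 in Sham+B12, 1015, 1009 and 1049 in I/R, and 1087, 1131 and 1407 in I/R+B12. All I/R+B12 libraries were above all I/R libraries, as for Ndufa3, against 4.41% of tested genes, and the difference was 0.23 (SE 0.12, adjusted p = 0.2303, limma). Part of Ndufb9 overlaps Gm49356 on the same strand, which was listed at a mean of 9.85 FPKM. Ndufb5, another distal subunit, gave 540, 657 and 478 FPKM in Sham, 530, 620 and 548 in Sham+B12, 462, 495 and 525 in I/R, and 508, 586 and 659 in I/R+B12. Its groups overlapped.

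Other respiratory complexes gave medians of similar size. For I/R averaged over both waters the median log2 difference was -0.19 for 4 subunits of complex II, -0.09 for 9 of complex III, -0.14 for 10 of complex IV and -0.11 for 17 of complex V, with no gene called, beside -0.12 for the 37 genes. The mitochondrially encoded subunits of complex I, of which 6 of 7 passed the filter, had a median of 0.13 on water, with 6 of 6 above 0, and -0.13 under B12, with 5 of 6 below 0. No mitochondrial gene was called, and their scores ranged from -0.48 in Sham 3 to 0.50 in Sham+B12 2. The plot of list scores by library shows complexes II to V, like the 37 genes, below 0 in I/R 1 and 2 and I/R+B12 1 and 2. The mitochondrial genes were above 0 in I/R 2 and I/R+B12 2.

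**Figure D5:**
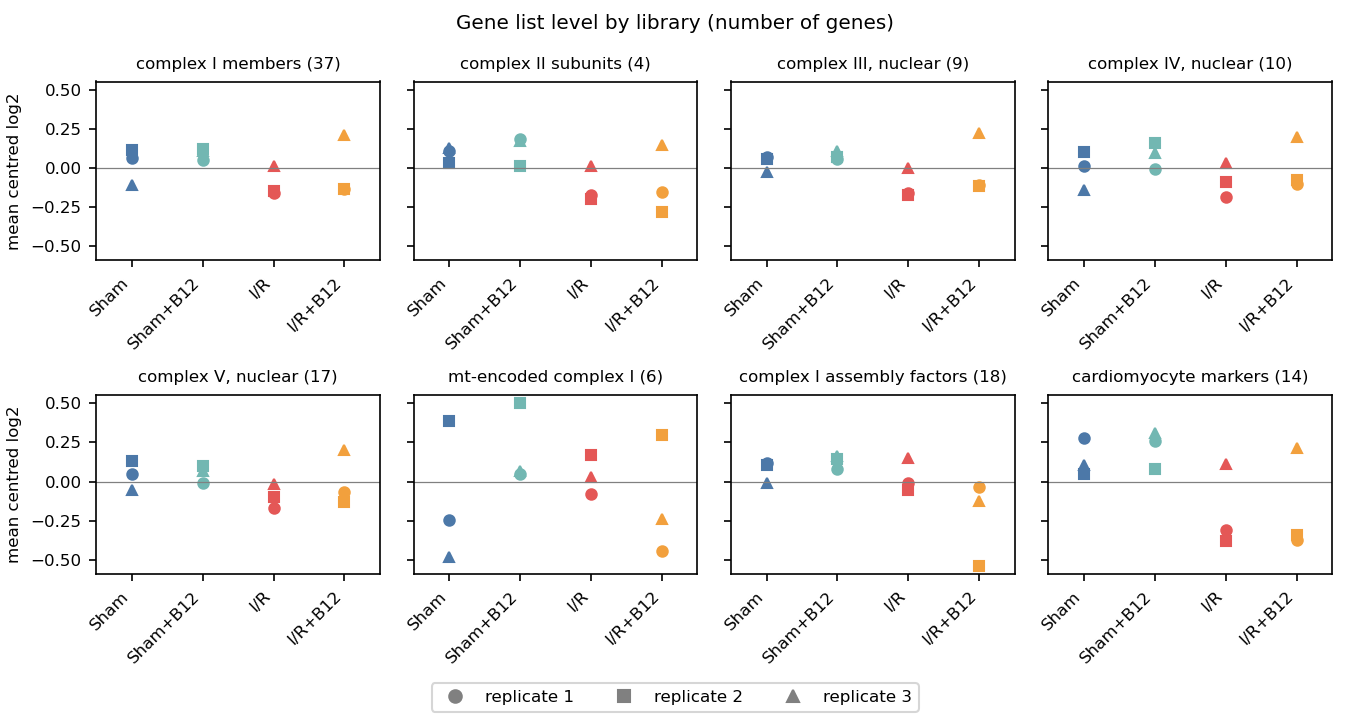
Mean centred log2 level of each gene list (number of genes) in each library, by group on the x axis and with symbols for replicates. Complex I members and complexes III to V have I/R+B12 3 on top, at 0.20 to 0.22, and the cardiomyocyte markers are lowest in I/R 1 and 2 and I/R+B12 1 and 2.

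Complex I assembly factors build the enzyme but are not part of it. On normal water 13 of 18 tested genes were below 0 in I/R against Sham, against 30.9% of all tested genes. Their median was -0.085, beside 0.13 for all. For I/R+B12 against Sham+B12, 18 of 18 were below 0, against 51.9%, with a median of -0.33 beside -0.02 for all. One passed the test, where 3.62% of all tested genes were called lower: Dmac2, which fell from 32.5, 35.5 and 35.3 FPKM in Sham+B12 to 22.3, 14.6 and 25.6 FPKM in I/R+B12, a log2 difference of -0.74 (SE 0.17, adjusted p = 0.03095, limma). Without I/R+B12 2 the difference was -0.51 and adjusted p = 0.06974 (limma, 0.01353 to 0.1085 over all alternatives), and the score of the whole list was -0.54 in that library.

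Among 11 regulators of nuclear respiratory genes, 3 passed under B12 water and the same 3 in the average, all higher, where 6.78% and 8.36% of all tested genes were called higher (10.4% and 10.1% in either direction). In both comparisons 6 of the 11 were below 0, with medians of -0.29 and -0.16. Pprc1, a PGC-1-related coactivator, rose from 2.87, 3.38 and 2.93 FPKM to 6.71, 10.5 and 5.88 FPKM (log2 difference 1.06, SE 0.21, adjusted p = 0.02355, limma). Nrf1, the factor whose motif is given above, rose from 5.56, 4.95 and 4.10 FPKM to 6.42, 10.6 and 9.30 FPKM (0.72, SE 0.18, adjusted p = 0.03372, limma). Gabpb1, a subunit of an ETS-family activator, rose from 3.99, 2.63 and 3.22 FPKM to 5.21, 6.93 and 6.14 FPKM (0.73, SE 0.17, adjusted p = 0.03095, limma). Without I/R+B12 2 the adjusted p of the 3 under B12 was 0.06563, 0.1061 and 0.09929, and it was also above 0.05 for all 3 when any 1 Sham+B12 library was left out. Over all alternatives it ran from 0.00669 to 0.09681 for Pprc1, from 0.002268 to 0.1222 for Nrf1 and from 0.008641 to 0.1085 for Gabpb1 (limma). In the average the ranges were 0.0008168 to 0.06461, 0.001987 to 0.07898 and 0.005619 to 0.1297 (limma). On normal water no regulator was called. There 3 of the 11 were higher at an unadjusted p under 0.05 (background 10.6%) and 0 lower. Pprc1 and Nrf1 were among these 3, at 0.66 and 0.42 (adjusted p = 0.3825 and 0.4165, limma). None of the regulators was called lower. Esrrb, Esrrg and Ppargc1b, which are nuclear receptors and a PGC-1 coactivator, were lower at an unadjusted p under 0.05 under B12 and in the average. By that rule 15% and 9.54% of all tested genes were lower. Under B12 the log2 differences of Esrrb, Esrrg and Ppargc1b were -0.54, -0.61 and -0.66, with adjusted p = 0.1283, 0.07845 and 0.08604 (limma).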

How the data were processed

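Poly(A) RNA of 12 mouse heart libraries was sequenced in pairs, per the labels' protocols. The authors deposited 1 table of FPKM values, made with HISAT2 and StringTie on mm10 per the submitters' processing notes; annotation release and strand use are not given in the sources used here. Group means in the table were not used. Genes with an FPKM of at least 1 in at least 3 libraries were tested with limma 3.58.1 in R 4.3.3 on log2(FPKM + 1), with a variance trend, over all 12 libraries and 4 group means, two-sided, and adjusted by Benjamini-Hochberg over all 13001 tested genes. Differences are on the log2(FPKM + 1) scale. The procedure was tested on simulated data. Named genes were the core subunits (1 of which is not reported here), the 3 smallest p per comparison and the highest and lowest levels. Members and lists were chosen with earlier results of these data known. Coordinates follow GENCODE M21. Depth was estimated with 240 to 280 bases subtracted from transcript length, at which 84.6% to 89.2% of low values lay within 0.15 of a whole fragment. The lowest estimate for a member was 445 fragments (Ndufc1), a counting error of 4.74%. That estimate used a transcript of 315 bases, while exons of Ndufc1 cover 1495 bases, so it depends on the transcript chosen.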

Additional observations from a re-analysis of the deposited data

How the results depend on the processing

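Of 12 libraries, I/R+B12 3 changed the counts of called members most when left out alone. Members called, 0 in the main analysis of each comparison, ranged when 1 library was left out from 0 to 11 for I/R averaged over both waters and from 0 to 4 for I/R+B12 against Sham+B12 (the highest without I/R+B12 3, with 17.5% and 12.3% of all tested genes called), and were 0 throughout for the other comparisons. Without Sham 3 and I/R 3 the average called 1 (18.1% of all tested genes), and without these and I/R+B12 3 it called 18 (25%), with 5 for I/R under B12 water (18.1%); both were chosen after seeing the data. Library weights called 17 for I/R on normal water (33.9% of all tested genes), 8 in the average (36.4%) and 7 for B12 within I/R (33.3%), though the weights did not converge. In the average, quantile normalization called 3 (10.3%) and rescaled nuclear genes 1 (6.84%). Libraries of the same replicate number in different groups were on average no more alike than others. Their mean correlation was 0.01 over 18 same-number pairs (-0.41 to 0.39), and -0.01 over 36 other pairs. A mean over all tested genes cannot exclude pairing in some of them. A replicate block called 1 in the average (10.2%). With median-ratio scaling the members' median was -0.284 for I/R on normal water, 0.342 for B12 within I/R and 0.207 for the interaction; that scaling also moved the median of all genes by over 0.1. With library weights the median was 0.257 for B12 within I/R, 0.021 for I/R under B12 water and 0.224 for the interaction, and Ndufs7 reversed in the interaction to 0.015. The cause was not tested.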

Other observations

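Transcript length moved with the level of the 37 genes within some libraries. Across genes, which are not independent replicates, the correlation of the centred log2 level with log2 transcript length was 0.57 in Sham 3 and -0.50 in Sham+B12 2, and between -0.33 and 0.34 in the other 10. For I/R averaged over both waters, the 16 genes of up to 700 bases had a median log2 difference of -0.07 and the 21 longer genes -0.18. FPKM of short transcripts depends on the length subtracted for the fragment size, and the part of this in the difference was not tested.

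Ndufa4l2, a relative of Ndufa4 outside the rule that is known to be induced by hypoxia, gave 36.7, 46.8 and 29.5 FPKM in Sham, 35.2, 38.9 and 35.5 in Sham+B12, 50.9, 48.0 and 50.1 in I/R, and 37.5, 12.7 and 14.3 in I/R+B12. All I/R+B12 libraries lay below all I/R libraries, with a log2 difference of -1.34 (SE 0.32, adjusted p = 0.07884, limma), which did not pass. How many of all tested genes had that order was not counted. In this comparison 71.8% of all tested genes were below 0, and 24.6% were lower at an unadjusted p under 0.05. Ndufa4l2 was taken from a list of relatives, and its values were known when it was described.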
